A study of Mus musculus with 161 samples.

Results

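The BCL2 family survival and death genes described here are the 10 listed transcripts Bcl2, Mcl1, Bcl2a1b, Bcl2a1d, Bcl2l1, Bcl2l11, Bid, Bbc3, Bax and Bak1, of 43280 rows in the deposited table. They were listed by name, with no threshold on their values but with earlier results of these data known, and all 10 have a row. Levels are in TPM (transcript abundance, per transcript length and scaled to a fixed total per cell) in single mouse cells, each lysed in its own site of a Fluidigm C1 chip. All cells were untreated primary cells of C57BL/6 mice with no allele or agent given beyond the strain, and no age in the labels. The 66 common monocyte progenitors (cMoP) were bone marrow cells in a lineage-negative gate of CD117+, CD115+, CD135- and Ly6C+. The 57 bone marrow (BM) monocytes, called marrow monocytes here, met that gate but were CD117-. The 38 blood monocytes were CD115+ and CD11b+ with high Ly6C. Per the labels, libraries were made only where a cell's cDNA was of high quality. No label names an animal, so each group counts as 1 sample, cells are not replicates, and no difference below carries a test.

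BCL2 family proteins decide at the outer mitochondrial membrane whether a cell enters apoptosis. BAX and BAK1 are the effectors that open pores in that membrane and release cytochrome c. BCL2, MCL1, BCL2A1 and BCL-XL (from Bcl2l1) are the guardians that hold the effectors in check. The BH3-only proteins BIM (from Bcl2l11), BID and PUMA (from Bbc3) bind guardians or activate effectors. MCL1 is a short-lived protein on which many myeloid cells depend.

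The label check and the library facts that touch these genes were as follows. The 7 cMoP markers summed to a median of 18781 TPM in cMoP, 8.23 TPM in marrow monocytes and 7.25 TPM in blood monocytes, while 8 monocyte markers summed to medians of 7039, 60491 and 61644 TPM. Of 6 B cell markers 4 were listed at 0 in every cell, Cd79a and Pax5 among them, and the list summed to medians of 21.005 TPM (0 to 941) in cMoP, 0 TPM (0 to 328) in marrow monocytes and 0.81 TPM (0 to 1048) in blood monocytes. Of 7 T and NK cell markers Cd3e, Cd3g, Trbc2 and Ncr1 were listed at 0 in every cell, and the sums had medians of 113 TPM (0 to 2803), 0 TPM (0 to 14.9) and 0 TPM (0 to 35.8). In both of these lists the largest difference for marrow monocytes against cMoP was below 0, -3.61 for Cd79b and -5.64 for Nkg7. Of 8 neutrophil markers Ltf, Camp, Ngp and Retnlg were listed at 0 in both monocyte groups, and the sums had medians of 42.1 TPM (0 to 1068), 88.7 TPM (0.35 to 2124) and 66.3 TPM (0 to 1991), with Mmp8 at 3.28 for marrow monocytes against cMoP. The other measured neutrophil markers differed by 0.01 (S100a8), -0.97 (Csf3r) and -0.49 (Cxcr2) in that comparison, and the list median was -0.24. The part of the markers of these lists in the differences of the members was not tested. The median number of genes above 1 TPM was 6661.5 in cMoP, 4719 in marrow monocytes and 4319.5 in blood monocytes. 60 cMoP libraries came from another flow cell and lane than the monocytes, so stage and flow cell cannot be told apart between cMoP and marrow monocytes, whereas marrow and blood monocytes shared both. In 11 cMoP libraries over 15% of TPM was mitochondrial, and the labels of 6 cMoP libraries name no flow cell.

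The start-site windows of the 4 members whose mean level differed at least 2-fold between marrow monocytes and cMoP are printed to show the sequence context of the transcripts the results turn on. They are RefSeq sequences on GRCm38.p6, each holding 250 bases before and 50 after the annotated start. Mcl1 lies at chr3:95658471-95658770 on the plus strand, Bcl2 at chr1:106714241-106714540, Bid at chr6:120916775-120917074 and Bax at chr7:45466849-45467148, the last 3 on the minus strand. Capitals mark every match, on either strand, to the ETS core CCGGAA, the E-box CACGTG, the AP-1 site TGANTCA, the STAT site TTCNNNGAA and the cyclic AMP element TGACGTCA.
Mcl1: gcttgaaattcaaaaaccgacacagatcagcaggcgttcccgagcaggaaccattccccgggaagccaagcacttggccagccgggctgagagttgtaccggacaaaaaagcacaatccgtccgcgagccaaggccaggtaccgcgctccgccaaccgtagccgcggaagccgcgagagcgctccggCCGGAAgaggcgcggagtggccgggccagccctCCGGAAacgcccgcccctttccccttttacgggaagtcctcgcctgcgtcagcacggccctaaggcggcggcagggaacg
Bcl2: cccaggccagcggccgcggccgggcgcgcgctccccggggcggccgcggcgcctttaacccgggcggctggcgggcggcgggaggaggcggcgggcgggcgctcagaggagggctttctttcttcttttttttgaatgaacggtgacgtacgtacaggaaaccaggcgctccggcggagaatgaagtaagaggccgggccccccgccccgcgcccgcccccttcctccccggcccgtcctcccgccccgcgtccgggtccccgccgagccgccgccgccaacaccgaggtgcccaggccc
Bid: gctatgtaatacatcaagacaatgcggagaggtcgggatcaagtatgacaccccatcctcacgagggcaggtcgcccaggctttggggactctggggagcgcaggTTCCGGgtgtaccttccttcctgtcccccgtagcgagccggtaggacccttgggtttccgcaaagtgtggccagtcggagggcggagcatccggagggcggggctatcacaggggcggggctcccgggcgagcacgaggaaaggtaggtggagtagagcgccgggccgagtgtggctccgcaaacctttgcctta
Bax: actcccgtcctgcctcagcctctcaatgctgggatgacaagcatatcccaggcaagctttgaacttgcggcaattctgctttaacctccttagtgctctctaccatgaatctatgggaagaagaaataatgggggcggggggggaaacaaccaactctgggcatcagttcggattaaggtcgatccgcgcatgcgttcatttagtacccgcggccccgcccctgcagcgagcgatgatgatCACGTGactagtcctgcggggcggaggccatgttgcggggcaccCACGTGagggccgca
The Mcl1 window held 2 ETS cores and the Bid window 1, against 14.9% of 32851 mouse start-site windows with at least 1. The Bax window held 2 E-boxes, and 7.15% of the windows carry at least 1. None of the 5 motifs was found in the Bcl2 window. The AP-1 site, the STAT site and the cyclic AMP element were in none of these 4 windows, and 7.81%, 8.30% and 1.79% of all windows hold them. A match is a description of the letters only.

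Along the stages the guardian transcripts differed in opposite directions: Bcl2 was highest in cMoP and Mcl1 highest in blood monocytes. On the pro-apoptotic side Bid and Bax were listed above 1 TPM in most cMoP and in a minority of monocytes. Past a 2-fold difference in mean log2(TPM + 1), marrow monocytes against cMoP had 1 higher member of 10 (Mcl1) and 3 lower members (Bcl2, Bid and Bax). Of the 14003 genes measured, meaning that 10% or more of some group's cells exceeded 1 TPM, 3.94% were higher and 30.8% were lower by that measure, so 3 of 10 lower members is close to the share of all genes. Blood monocytes against marrow monocytes had 0 of 10 members past 2-fold, where 1.96% of measured genes were higher and 9.66% lower. The median difference over measured genes was -0.45 for marrow monocytes against cMoP and -0.10 for blood against marrow monocytes. 9 of the 10 members passed the filter for measured genes, and Bcl2a1b did not. For each of the 10 members, both differences were smaller than the larger SD over cells.

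**Figure D1:**
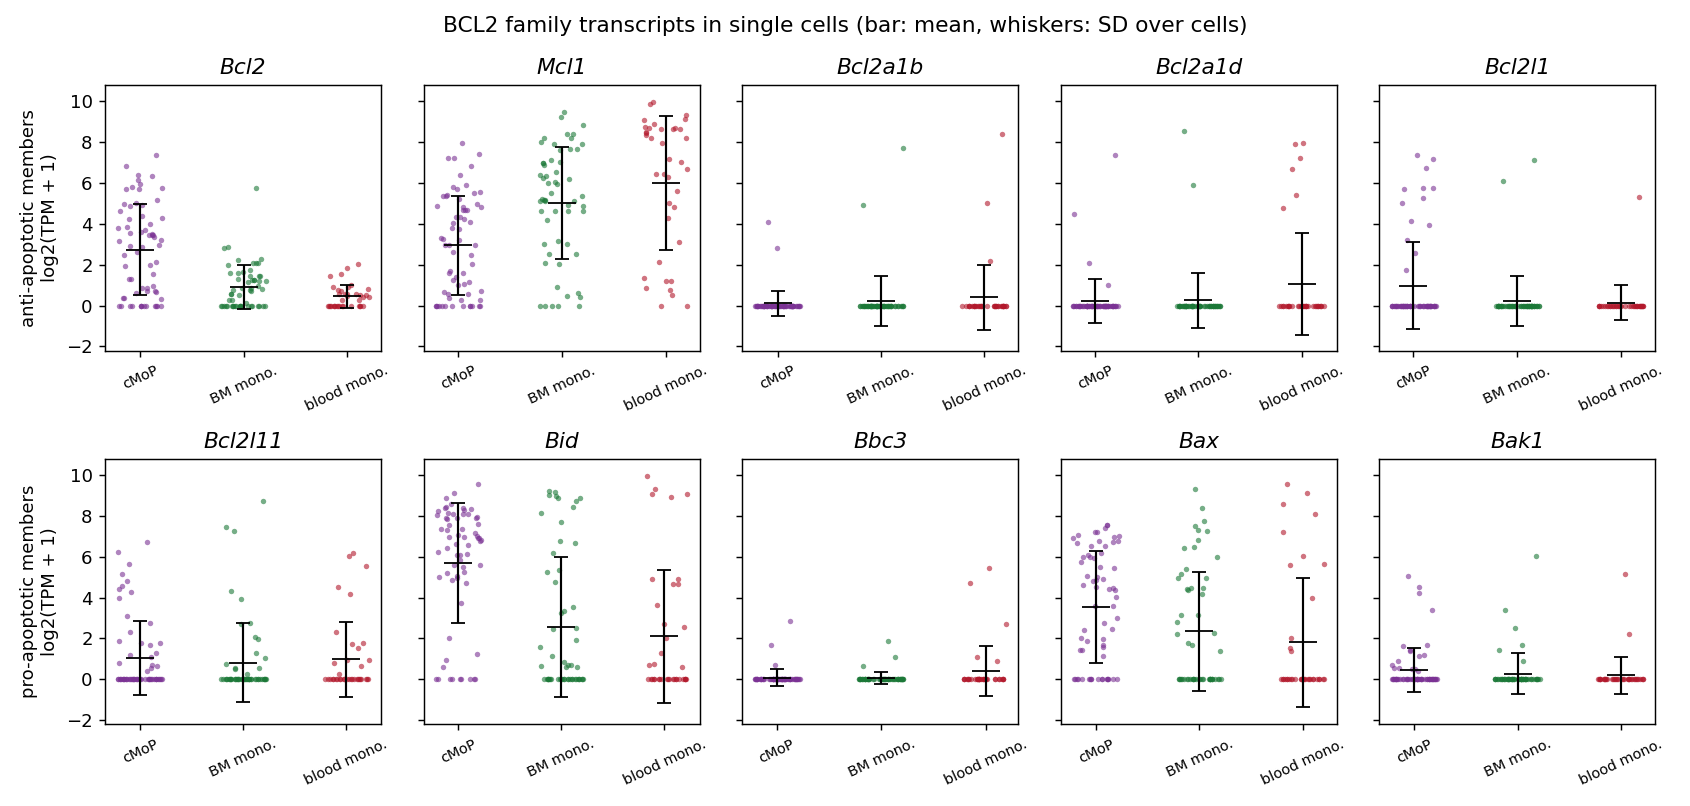
Level of each member, log2(TPM + 1), in every cell of the 3 groups; each point is 1 cell, the bar is the mean and the whiskers are the SD over cells, with the anti-apoptotic members in the upper row and the pro-apoptotic members in the lower. Bcl2 cells thin out across the stages, the Mcl1 cloud moves upward, and Bid and Bax split into cells near 0 and cells with high values in both monocyte groups.

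Bcl2, the founding guardian of the family, ran from 0 to 162 TPM in cMoP with a median of 6.68. In marrow monocytes its lowest, median and highest values were 0, 0.72 and 52.98 TPM, and in blood monocytes 0, 0.28 and 3.14 TPM. The ranges overlapped, but the upper end of the distribution was set apart: 28 of 66 cMoP, 1 of 57 marrow monocytes and 0 of 38 blood monocytes exceeded 10 TPM. A count of 0 of 38 cells allows a share of up to 7.89% when 3 cells are taken as the limit, and up to 9.25% by the exact binomial interval. Above 1 TPM stood 65.2% of cMoP (exact binomial 95% interval 52.4 to 76.5), 40.4% of marrow monocytes (27.6 to 54.2) and 13.2% of blood monocytes (4.41 to 28.1). Intervals of this kind cover the counting of cells only. With a threshold of 0 TPM the Bcl2 shares lay closer together, at 80.3% of cMoP, 63.2% of marrow monocytes and 55.3% of blood monocytes. Mean levels in log2(TPM + 1) were 2.75 ± 2.21 in cMoP, 0.91 ± 1.06 in marrow monocytes and 0.45 ± 0.55 in blood monocytes (SD over cells). The difference was -1.84 for marrow monocytes against cMoP and -0.46 for blood against marrow monocytes. With a pseudocount of 10 TPM the first of these was -0.82, short of 2-fold, and as a log2 ratio of mean TPM it was -3.17.

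Mcl1, the short-lived guardian, showed the opposite order. Its lowest, median and highest values were 0, 6.89 and 247 TPM in cMoP, 0, 36.2 and 708 TPM in marrow monocytes, and 0, 138 and 987 TPM in blood monocytes. Every group thus held cells at 0, and the groups overlapped over the lower range. Mean levels in log2(TPM + 1) were 2.95 ± 2.42, 5.04 ± 2.74 and 6.02 ± 3.28 across cMoP, marrow monocytes and blood monocytes. The difference was 2.08 for marrow monocytes against cMoP and 0.98 for blood against marrow monocytes, just below 2-fold. After median-ratio scaling the blood difference was 1.10, and without the 1 blood library whose ribosomal share was under 2% it was 1.11. The share of cells above 1 TPM moved less than the level, at 69.7% in cMoP (57.1 to 80.4), 84.2% in marrow monocytes (72.1 to 92.5) and 86.8% in blood monocytes (71.9 to 95.6). In cMoP the level of Mcl1 moved with library complexity, with a Spearman rho of 0.40 against the number of genes above 1 TPM over 66 cells, and its part in the result was not tested. Among cells with 4500 to 6000 genes above 1 TPM, with libraries over 15% mitochondrial or under 2% ribosomal TPM left out, the marrow difference was 3.38, from 33 marrow monocytes and 7 cMoP.

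Listing of both guardians in the same cell differed between stages. Both were above 1 TPM in 34 of 66 cMoP, 19 of 57 marrow monocytes and 4 of 38 blood monocytes. Mcl1 without Bcl2 was listed in 12, 29 and 29 cells of these groups, and Bcl2 without Mcl1 in 9, 4 and 1. Cells above 1 TPM for neither numbered 11, 5 and 4. The share of cells listing each gene differed too, and a link in listing beyond these separate shares was not tested. The Spearman rho of Bcl2 with Mcl1 was 0.19 in cMoP and 0.02 in each monocyte group. At the threshold of 1 TPM Mcl1 alone was the commonest listing in both monocyte groups, and both genes the commonest in cMoP. Above 10 TPM, 41 of 57 marrow monocytes (71.9%) and 28 of 38 blood monocytes (73.7%) listed Mcl1 alone. Of the 66 cMoP, 17 listed Mcl1 alone at that threshold, 12 listed both and 21 listed neither.

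**Figure D2:**
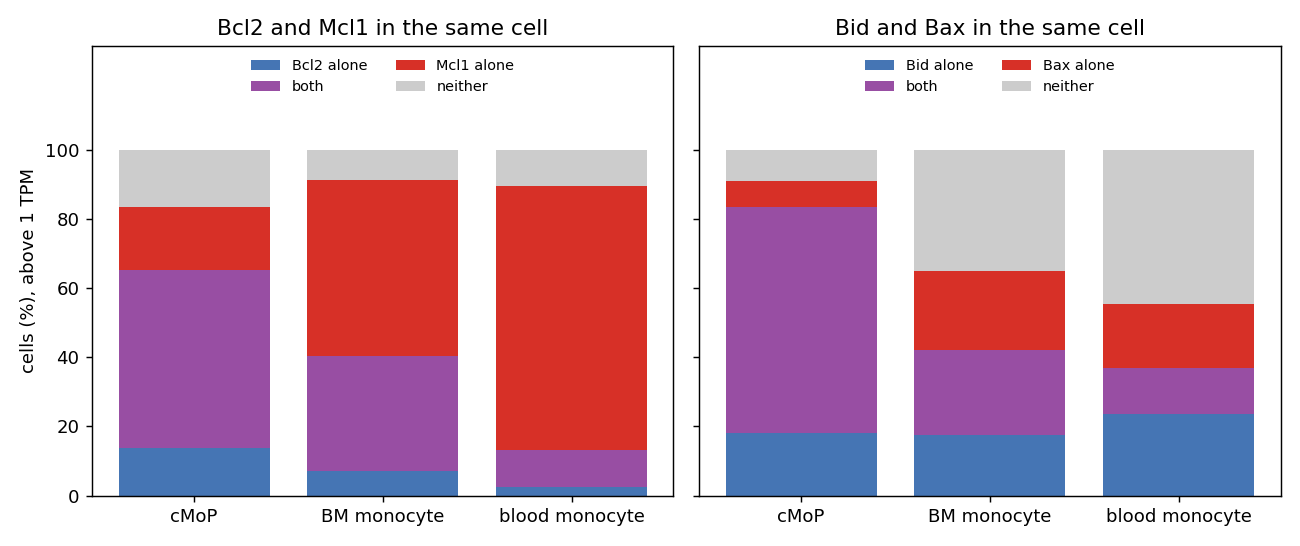
Percent of cells of each group that list Bcl2 and Mcl1 (left) or Bid and Bax (right) above 1 TPM, alone, together or not at all. The Mcl1-alone band is largest in blood monocytes with 29 of 38 cells, and the band for both Bid and Bax is largest in cMoP with 43 of 66 cells.

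Bcl2a1b and Bcl2a1d are near-identical mouse copies of the gene for the guardian A1, on chromosome 9 beside the copy Bcl2a1a. Their coding sequences of 516 bases differ at 6 positions and are 98.8% identical. The first 150 coding bases, read from the GENCODE transcripts of GRCm38, are printed because they show how little the reads have to tell the copies apart; capitals mark the bases that differ. Bcl2a1b spans chr9:89199209-89207827 on the plus strand and Bcl2a1d chr9:88723285-88731914 on the minus strand.
Bcl2a1b: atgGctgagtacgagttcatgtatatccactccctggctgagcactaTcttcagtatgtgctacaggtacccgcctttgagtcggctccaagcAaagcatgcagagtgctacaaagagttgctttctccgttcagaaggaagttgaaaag
Bcl2a1d: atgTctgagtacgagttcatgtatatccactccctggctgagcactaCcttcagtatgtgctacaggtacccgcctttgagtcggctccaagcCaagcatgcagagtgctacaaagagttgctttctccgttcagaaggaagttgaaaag
Counted from the A of the start codon, with the Bcl2a1b base first, the differences in this stretch are G4T, T48C and A94C. Of all 50-base windows of the transcripts, 57.6% of those of Bcl2a1b and 79.5% of those of Bcl2a1d occur in another copy. The split of reads between copies is therefore uncertain, and the sum of Bcl2a1a, Bcl2a1b, Bcl2a1c and Bcl2a1d is the safer measure.

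The A1 copies were listed in few cells and reached high values in some of them. Bcl2a1b was above 1 TPM in 2 of 66 cMoP, 2 of 57 marrow monocytes and 3 of 38 blood monocytes, with highest values of 15.97, 212 and 331 TPM. Bcl2a1d was above 1 TPM in 4, 2 and 6 cells of these groups, with highest values of 163, 374 and 252 TPM. The summed copies exceeded 1 TPM in 10.6% of cMoP (4.37 to 20.6), 7.02% of marrow monocytes (1.95 to 17.004) and 23.7% of blood monocytes (11.4 to 40.2), and these intervals overlap. No cell listed both Bcl2a1b and Bcl2a1d above 1 TPM. Each of the 7 cMoP and 4 marrow monocytes with a copy listed a single one, and 2 of the 9 blood monocytes listed 2. Those 2 cells paired Bcl2a1c with Bcl2a1d and Bcl2a1a with Bcl2a1b. All 9 of these blood monocytes had Mcl1 between 144 and 987 TPM, above the blood median of 138 TPM, and the Spearman rho of Bcl2a1d with Mcl1 over the 38 blood cells was 0.50. It was the largest of 45 member pairs in that group, given as a description over cells that share a flow cell and lane.

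Bcl2l1, which encodes the guardian BCL-XL, was above 1 TPM in 19.7% of cMoP (10.9 to 31.3), 3.51% of marrow monocytes (0.428 to 12.1) and 2.63% of blood monocytes (0.0666 to 13.8). In cells above 1 TPM the median was 38.1 TPM in the 13 cMoP and 103 TPM in the 2 marrow monocytes, and the 1 blood monocyte had 39.1 TPM. The gene was thus listed in few cells of any stage. The difference in mean log2(TPM + 1) was -0.74 for marrow monocytes against cMoP and -0.09 for blood against marrow monocytes. Among cells with 4500 to 6000 genes the first had the opposite sign, at 0.40.

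Bid, whose protein links death receptors to mitochondria when caspase-8 cleaves it, had the largest difference in mean log2(TPM + 1) of the 10 members for marrow monocytes against cMoP. Its lowest, median and highest values were 0, 112 and 763 TPM in cMoP, 0, 0.53 and 593 TPM in marrow monocytes, and 0, 0 and 981 TPM in blood monocytes. The share of cells that listed it was lower in the monocyte groups, while the highest values were not set apart. Bid was above 1 TPM in 83.3% of cMoP (72.1 to 91.4), 42.1% of marrow monocytes (29.1 to 55.9) and 36.8% of blood monocytes (21.8 to 54.01). Among cells above 1 TPM the mean was 175 TPM in cMoP, 199 TPM in marrow monocytes and 236 TPM in blood monocytes. The median of those cells went the other way, at 131, 86.4 and 26.8 TPM. Mean levels in log2(TPM + 1) were 5.70 ± 2.92, 2.56 ± 3.41 and 2.10 ± 3.24, with differences of -3.14 for marrow monocytes against cMoP and -0.46 for blood against marrow monocytes. As a log2 ratio of mean TPM these differences were -0.80, short of 2-fold, and 0.05.

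Fewer genes were listed in monocytes as a whole. The median measured gene was above 1 TPM in 40.9% of cMoP, 22.8% of marrow monocytes and 21.1% of blood monocytes, and 75.6% of measured genes had a lower share in marrow monocytes than in cMoP. The part of this in the Bid and Bax shares was not tested. Among cells with 4500 to 6000 genes the Bid difference was -3.55 and the Bax difference 0.74, from 33 marrow monocytes and 7 cMoP. Over all cells the Bax difference was -1.19.

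Bcl2l11, the gene for BIM, which binds all guardians, was listed in overlapping shares at each stage. It was above 1 TPM in 28.8% of cMoP (18.3 to 41.3), 19.3% of marrow monocytes (10.0 to 31.9) and 23.7% of blood monocytes (11.4 to 40.2), with highest values of 105, 422 and 71.4 TPM. The differences in mean log2(TPM + 1) were -0.22 for marrow monocytes against cMoP and 0.17 for blood against marrow monocytes, and as log2 ratios of mean TPM they had the other sign, at 1.22 and -1.18. Of cells with Bcl2l11 above 1 TPM, 14 of 19 cMoP, 10 of 11 marrow monocytes and 9 of 9 blood monocytes listed Mcl1 too, near the 69.7%, 84.2% and 86.8% of all cells of these groups that did. Bbc3, the gene for PUMA, a p53 target, was near the lower limit everywhere. It was above 1 TPM in 2 cMoP, 2 marrow monocytes and 4 blood monocytes, with highest values of 6.26, 2.73 and 42.3 TPM.

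Bax, one of the effectors, ran from 0 to 190 TPM in cMoP with a median of 17.5 TPM. Its median was 0 in both monocyte groups, with highest values of 629 TPM in marrow monocytes and 757 TPM in blood monocytes. It was above 1 TPM in 72.7% of cMoP (60.4 to 83.0), 47.4% of marrow monocytes (33.98 to 61.03) and 31.6% of blood monocytes (17.5 to 48.7). Mean TPM did not follow the share, at 41.5 in cMoP, 40.2 in marrow monocytes and 60.4 in blood monocytes, with fewer cells carrying higher values. The difference in mean log2(TPM + 1) was -1.19 for marrow monocytes against cMoP, and among cells with 4500 to 6000 genes it had the opposite sign, at 0.74. For blood against marrow monocytes it was -0.54, and 0.59 as a log2 ratio of mean TPM. Bax too moved with complexity in cMoP, with a Spearman rho of 0.40 over 66 cells.

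Bak1, the other effector, was low: above 1 TPM in 15.2% of cMoP, 8.77% of marrow monocytes and 5.26% of blood monocytes, with highest values of 32.7, 65.6 and 34.8 TPM. Its differences were -0.17 for marrow monocytes against cMoP and -0.09 for blood against marrow monocytes, and the first was 0.14 among cells with 4500 to 6000 genes. At least 1 effector was above 1 TPM in 74.2% of cMoP (61.99 to 84.2), 47.4% of marrow monocytes (33.98 to 61.03) and 34.2% of blood monocytes (19.6 to 51.4). Bid and Bax together were listed in 43 of 66 cMoP, 14 of 57 marrow monocytes and 5 of 38 blood monocytes, and neither in 6, 20 and 17 cells. The Spearman rho of Bid with Bax was 0.20, 0.08 and 0.10 in these groups. A link in listing beyond their separate shares was not tested.

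**Figure D3:**
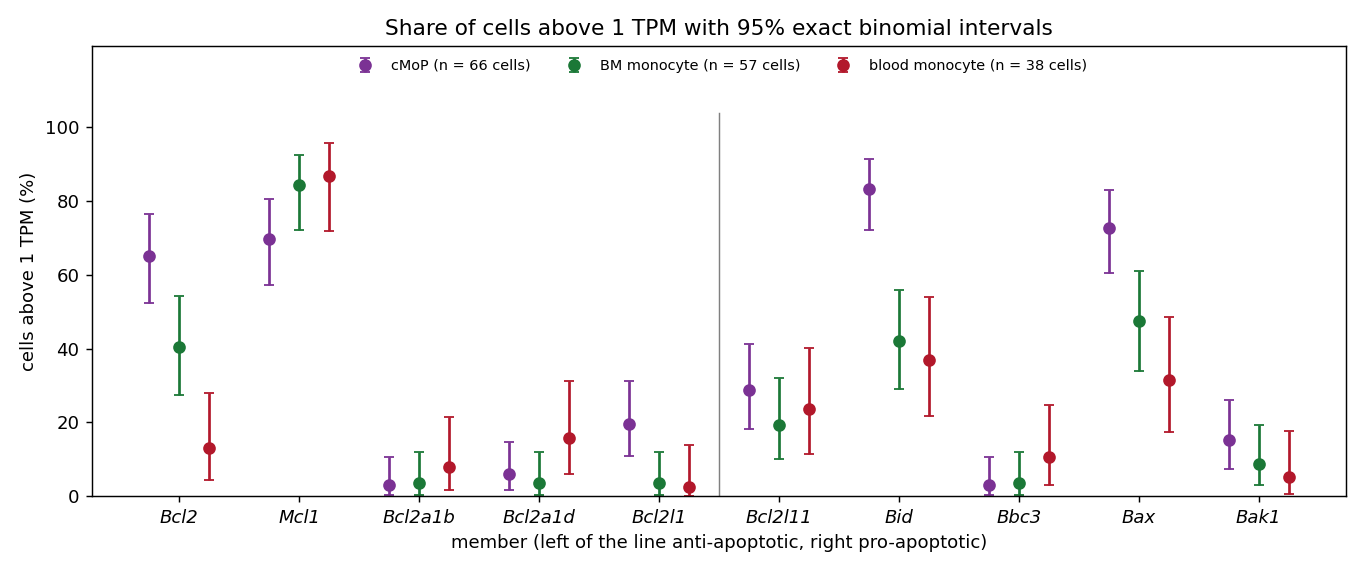
Percent of cells above 1 TPM for each member, with 95% exact binomial intervals over cells, in 66 cMoP, 57 marrow monocytes and 38 blood monocytes. Bcl2, Bid and Bax stand highest in cMoP, at 65.2%, 83.3% and 72.7%, and Mcl1 is the one member above 80% in both monocyte groups.

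The odd cMoP libraries differed from the rest in these genes. Of the 11 with over 15% mitochondrial TPM, Bcl2 was above 1 TPM in 4, Mcl1 in 6, Bid in 6 and Bax in 4. In the 6 without a flow cell, all 4 genes were above 1 TPM in every library. In the other 49 cMoP the counts were 33 for Bcl2, 34 for Mcl1, 43 for Bid and 38 for Bax. Without the libraries over 15% mitochondrial or under 2% ribosomal TPM the differences for marrow monocytes against cMoP were -2.17 for Bcl2, 2.02 for Mcl1 and -3.62 for Bid, and without the 6 libraries lacking a flow cell they were -1.71, 2.28 and -3.09.

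Summed over members, the make-up of the guardian side was mostly Mcl1 in monocytes. Of the summed mean TPM of the 5 anti-apoptotic members, Mcl1 made up 44.6% in cMoP, 85.9% in marrow monocytes and 88.2% in blood monocytes. Bcl2 made up 31.7%, 1.64% and 0.178%, and Bcl2l1 18.1%, 2.92% and 0.375%. The pro-apoptotic side was mostly Bid, with 74.8%, 60.1% and 55.6% of its summed mean TPM, and Bax with 21.3%, 28.8% and 38.6%. A minority of cells set the Bid mean of 87.0 TPM in blood monocytes, where its median was 0 and its upper quartile 10.1 TPM. Summed mean TPM of the guardians was 57.6 in cMoP, 124 in marrow monocytes and 274 in blood monocytes, and of the pro-apoptotic members 195, 140 and 157.

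The balance was taken per cell as log2 of the summed anti-apoptotic TPM plus 1 over the summed pro-apoptotic TPM plus 1, so that a positive value means more guardian transcript. Its lowest, median and highest values were -9.58, -2.196 and 7.95 in cMoP, -8.40, 0.58 and 9.48 in marrow monocytes, and -8.27, 1.55 and 10.2 in blood monocytes. Cells of every group spread over almost the whole range, while the medians lay in the order of the stages. The balance was positive in 19.7% of cMoP (10.9 to 31.3), 56.1% of marrow monocytes (42.4 to 69.3) and 73.7% of blood monocytes (56.9 to 86.6). Its mean was -2.17 ± 3.21, 0.84 ± 4.23 and 2.33 ± 4.29. The difference was 3.003 for marrow monocytes against cMoP and 1.499 for blood against marrow monocytes, both smaller than the SD over cells.

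In mean log2(TPM + 1) both sides contributed to these differences. In summed mean TPM the pro-apoptotic side was not lower in blood than in marrow monocytes, at 157 against 140. For marrow monocytes against cMoP the anti-apoptotic sum differed by 0.84 and the pro-apoptotic sum by -2.16 in mean log2(TPM + 1), and for blood against marrow monocytes by 0.75 and -0.75. Cells with a pro-apoptotic sum of at most 1 TPM numbered 2 of 66 cMoP, 14 of 57 marrow monocytes and 14 of 38 blood monocytes. Such cells can reach high balances through a sum near 0. Where the guardian sum was near 0 as well, a positive balance could rest on little transcript, as in 1 blood monocyte with 0.87 TPM of guardians and a balance of 0.90. Left without Mcl1, the balance of marrow monocytes against cMoP differed by 0.43 only, and without Bid by 1.94, an alternative added after the values were seen. With the further guardian genes Bcl2a1a, Bcl2a1c, Bcl2l2 and Bcl2l10 and the further pro-apoptotic genes Bad, Bik, Bmf, Hrk, Pmaip1 and Bok in the sums, the mean balance was -2.63 in cMoP, 0.01 in marrow monocytes and 0.53 in blood monocytes, so the difference of blood against marrow monocytes was 0.52. As the ratio of summed mean TPM, the balance was 0.295 in cMoP, 0.888 in marrow monocytes and 1.75 in blood monocytes.

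**Figure D4:**
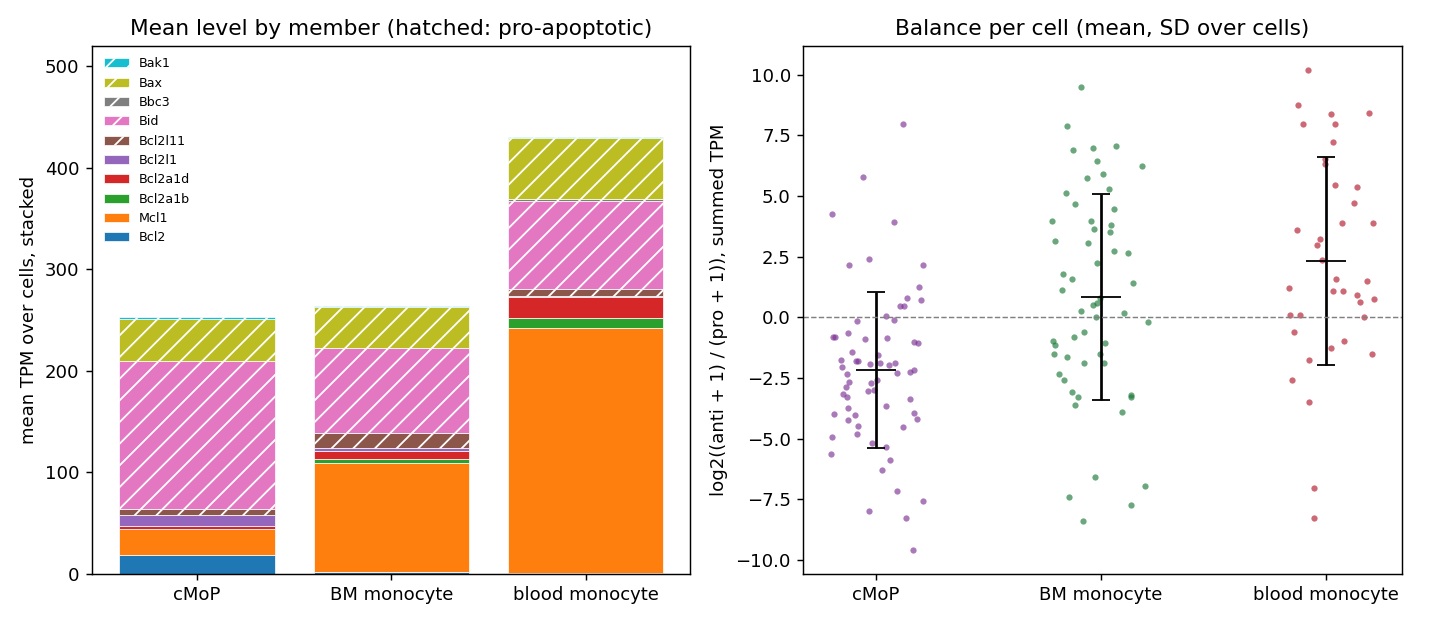
Left, mean TPM of each member stacked by group, pro-apoptotic members hatched; Mcl1 averages 25.7 TPM in cMoP, 107 TPM in marrow monocytes and 241 TPM in blood monocytes. Right, balance per cell as log2 of the anti-apoptotic over the pro-apoptotic sum, with mean and SD over cells and a dashed line at 0; the means are -2.17 in cMoP, 0.84 in marrow monocytes and 2.33 in blood monocytes.

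Within a group, member pairs showed weak rank correlations. Over the 45 member pairs the Spearman rho ran from -0.19 to 0.38 with a median of 0.07 in cMoP, from -0.20 to 0.37 with a median of 0.06 in marrow monocytes, and from -0.25 to 0.50 with a median of 0.02 in blood monocytes. The median cell listed 4 members above 1 TPM in cMoP and 2 in each monocyte group. Weak rank correlations in such sparse values carry no finding.

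The other genes of the family included one with a higher share in blood. Pmaip1, the gene for NOXA, a BH3-only protein that binds MCL1, was above 1 TPM in 15.2% of cMoP (7.51 to 26.1), 12.3% of marrow monocytes (5.08 to 23.7) and 42.1% of blood monocytes (26.3 to 59.2). Its highest values were 51.6, 139 and 748 TPM, and its difference was 0.08 for marrow monocytes against cMoP and 1.52 for blood against marrow monocytes. All 16 blood monocytes with Pmaip1 above 1 TPM also listed Mcl1, as did 7 of 7 marrow monocytes and 8 of 10 cMoP. Of all cells, 86.8% of blood monocytes, 84.2% of marrow monocytes and 69.7% of cMoP listed Mcl1, so the overlap is near that of any cell. Of the 8 measured genes of 16 listed, 0 were higher and 3 lower by at least 2-fold in marrow monocytes against cMoP, where 30.8% of all measured genes were lower. The 3 were the mitophagy receptor gene Bnip3 at -2.18, Bcl2l12 at -2.17 and the BH3-only gene Bad at -1.87. In blood against marrow monocytes Pmaip1 was the 1 higher gene, and Bnip3l, a mitophagy receptor gene, the 1 lower, at -1.24. Of all measured genes, 1.96% were higher and 9.66% lower in that comparison.

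Counts of the further lists are read against all measured genes, of which 3.94% were higher and 30.8% lower by at least 2-fold in marrow monocytes against cMoP, with a median of -0.45, and 1.96% higher and 9.66% lower in blood against marrow monocytes, with a median of -0.10. Of 10 apoptosome and caspase genes, 0 were higher and 4 lower by at least 2-fold, with a median of -0.77; among them were Parp1, which encodes a DNA repair enzyme that caspases cleave, at -2.76, Casp2 at -1.29 and the cytochrome c gene Cycs at -1.27. In blood against marrow monocytes 1 was higher (Dffa, encoding the inhibitor of the caspase-activated nuclease, 1.25) and 1 lower. Of 11 inhibitor of apoptosis genes and their antagonists, 0 were higher and 4 lower, with a median of -0.42, and Birc5 (survivin, also a mitotic protein) was lower in both comparisons, at -2.60 and -1.85. Of 7 genes for mitochondrial channel partners, 6 were lower in marrow monocytes against cMoP, with a median of -1.88, and 3 in blood against marrow monocytes, with a median of -0.73. They included Mtch2, the mitochondrial receptor for cleaved BID, at -2.49 and -0.73, and the channel gene Vdac1 at -2.97 and -1.66. Cell cycle genes moved alongside: all 12 S phase genes were lower by at least 2-fold in marrow monocytes against cMoP, their sum having a median of 135 TPM (0.52 to 6633) in marrow monocytes against 3165 TPM (376 to 6842) in cMoP, and the part of cycling in these list values was not tested.

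Upstream inputs were mixed. Of 10 death receptor pathway genes, 2 were higher and 3 lower by at least 2-fold in marrow monocytes against cMoP, with a median of -0.72, against 3.94% higher and 30.8% lower among all measured genes. Tnfrsf1b, encoding TNF receptor 2, differed by 2.86 and the death receptor gene Fas by 1.55, against -3.13 for the necroptosis kinase gene Ripk3 and -1.90 for Casp8, whose protein cleaves BID. In blood against marrow monocytes 0 were higher and 3 lower (Fas, Cflar and Tradd), where 1.96% of all measured genes were higher and 9.66% lower. Of 8 measured genes of the p53 axis, Trp53 itself stood at -4.02 and Cdkn1a, a p53 target that arrests the cell cycle, at 2.98 in marrow monocytes against cMoP, with 1 higher and 3 lower in all. Trp53 was above 1 TPM in 97.0% of cMoP, 56.1% of marrow monocytes and 47.4% of blood monocytes, and Cdkn1a in 25.8%, 66.7% and 68.4%. Of 5 measured genes for MCL1 turnover, 0 were higher and 2 lower, the MCL1 ubiquitin ligase gene Huwe1 at -2.71 and the deubiquitinase gene Usp9x at -1.64; 30.8% of all measured genes were lower.

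Of the 8 cell death and survival lists, survival signalling was the one with a median above 0 in marrow monocytes against cMoP, at 0.05. Of its 17 genes 2 were higher and 3 lower by at least 2-fold there, and 3 higher and 1 lower in blood against marrow monocytes. Among all measured genes 3.94% were higher and 30.8% lower in the first comparison, and 1.96% higher and 9.66% lower in the second. Pim1, a cytokine-induced survival kinase gene, had medians of 36.8 TPM in cMoP, 191 TPM in marrow monocytes and 513 TPM in blood monocytes, with differences of 2.01 and 1.71, the same order as Mcl1. Csf1r, encoding the receptor for the monocyte survival factor CSF1, differed by 0.19 for marrow monocytes against cMoP and by 2.11 for blood against marrow monocytes. Rel, an NF-kB subunit gene, differed by 0.98 and 1.47. Rela and Nfkb1, genes of other NF-kB subunits, were among the lower genes for marrow monocytes against cMoP, at -1.53 and -1.20. For blood against marrow monocytes they differed by 0.76 and -0.46, and the 1 lower gene there was Atf4 at -1.28.

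**Figure D5:**
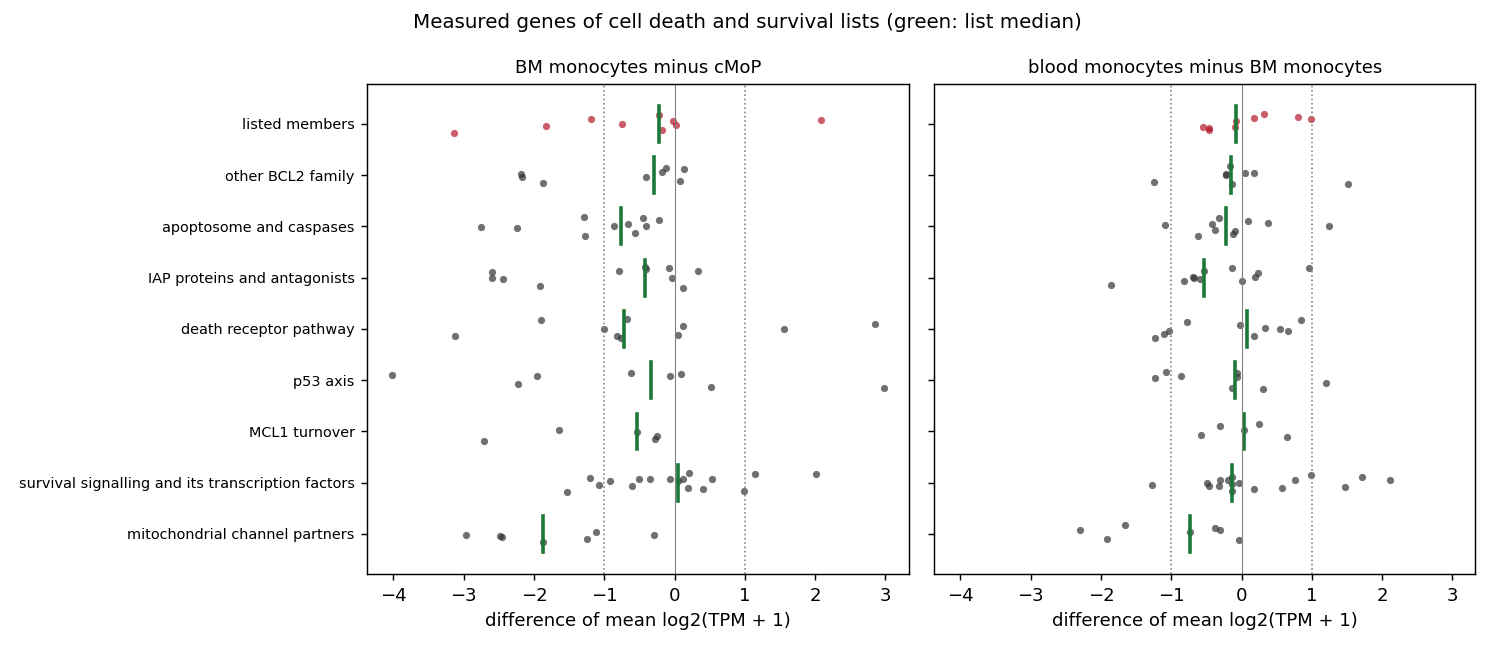
Difference of mean log2(TPM + 1) for every measured gene of 8 cell death and survival lists and for the 9 measured members of the 10 (red), for marrow monocytes minus cMoP (left) and blood monocytes minus marrow monocytes (right); green marks are list medians and dotted lines mark 2-fold. Most list medians lie below 0 on the left, with mitochondrial channel partners lowest at -1.88.

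The genes most like a member in rank over the 66 cMoP, 57 marrow monocytes and 38 blood monocytes as 1 set were taken from 5530 genes searched. For Mcl1 they were Clec4a3 (Spearman rho 0.48), Tyrobp (0.48), Ctss (0.45), Lilrb4 (0.45) and Slfn1 (0.44). Within cMoP the rho was 0.08 for Clec4a3, 0.01 for Tyrobp, 0.08 for Ctss and 0.29 for Lilrb4, and Slfn1 was listed at 0 there. For Bcl2 they were Tspan4 (0.55), Ccnd2 (0.52), Kansl2 (0.51), H2afy (0.51) and Wdr74 (0.51), and within cMoP the rho was 0.41, 0.35, 0.43, 0.18 and 0.25 for these genes. Bid lay closest to Acot7 (0.50), Topbp1 (0.50) and Smn1 (0.49), and Bax to Gins4 (0.45), Pmf1 (0.44) and Nusap1 (0.43). Gins4 had a rho of 0.39, 0.37 and 0.32 with Bax within cMoP, marrow monocytes and blood monocytes. The highest value for the sparse Bcl2a1b was 0.27, with Ddx3y. Stage and complexity differ between the groups, and flow cell between most cMoP and the monocytes, so these are descriptions.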

How the data were processed

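The deposited values are TPM per gene and cell in 1 table of 43280 rows, made by the authors with RSEM 1.2.19 on GRCm38, per the submitters' processing notes; the aligner is not given in the sources used here, and neither is the annotation. TPM hides how many reads a cell had, and this depth is unknown. Genes listed above 1 TPM stood for library complexity. A value of 0 can be a transcript lost in capture. All columns matched a labelled cell.

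Differences subtract the earlier stage's mean log2(TPM + 1) from that of the later stage, over 14003 measured genes, and the pseudocount of 1 TPM understates differences of low genes. No test was run, since each group is 1 sample. Shares carry 95% Clopper-Pearson intervals, for the counting of cells alone. All members were named, and of each other list up to 4 measured genes with the largest absolute difference in either comparison. For Bcl2, Mcl1, Bcl2a1b, Bax and Bid, up to 5 genes of highest Spearman rho were taken among genes that exceeded 1 TPM in 50% or more of some group's cells. Members and lists were chosen with earlier results of these data known. Alternatives covered the pseudocount, the scale, median-ratio scaling, doubtful libraries and cells of 4500 to 6000 genes. They also covered the make-up of the balance and the threshold of the shares. The functions were tested on simulated data, with Python 3.11.15, numpy 2.4.6, pandas 2.3.3 and scipy 1.17.1. Start-site windows came from RefSeq and coding sequences from GENCODE. A search of the member proteins for BH3 cores was planned and not run. Single values of some list genes are not reported here.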

Additional observations from a re-analysis of the deposited data

How the results depend on the processing

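No setting turned the direction of the balance or of the Mcl1, Bcl2 and Bid differences for marrow monocytes against cMoP. The balance difference of 3.003 became 1.59 as a log2 ratio of summed mean TPM, 3.83 with a pseudocount of 0.1 TPM, 1.98 with one of 10 TPM, 0.43 without Mcl1, 0.88 as a mean of member logs and 1.94 without Bid. For blood against marrow monocytes 1.499 became 0.74 among cells with 4500 to 6000 genes, 0.52 with other family genes and 0.40 as a mean of member logs. The 4 members past 2-fold in marrow monocytes against cMoP became 2 with a pseudocount of 10 TPM, and 6 by ratio of mean TPM, of which Bcl2 and Mcl1 were shared with the 4. The 0 members in blood against marrow monocytes became 7 by ratio of mean TPM, 3 with a pseudocount of 0.1 TPM, 1 (Mcl1) with median-ratio scaling, 1 (Mcl1) without the libraries rich in mitochondrial or poor in ribosomal transcripts, and 2 at a 1.5-fold threshold. Bax had the opposite sign, 0.74, among cells with 4500 to 6000 genes. The cause of these moves was not tested.

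With 1 sample per group no sample can be left out in turn. No paired analysis was possible because the replicate numbers only name cells. TPM gives no counting error for a level, and a low transcript lost in capture cannot be told apart from an absent one.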
